A study of Mus musculus with 19 samples.

Results

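The proteins that coat lipid droplets and the lipases that empty them are described here through 10 genes out of 18820 measured: the perilipins Plin1, Plin2, Plin4 and Plin5, the droplet fusion proteins Cidea and Cidec, the lipases Pnpla2, Pnpla3 and Lipe, and the lipase coactivator Abhd5. They were taken by gene symbol, with earlier results of these data known. Each was read from its brightest probe set by the mean over all 19 arrays, and all 10 were measured. The cells were differentiated 3T3-L1 preadipocytes, a mouse fibroblast line that turns into fat-storing adipocytes in culture, grown in medium with insulin and without serum from day 7. From day 8 they received 1 fatty acid at 250 µM for 48 h. The acids were palmitic acid (PA, 16 carbons, no double bond, n = 4), palmitoleic acid (PMA, titled PMO by the submitters, 16 carbons and 1 double bond, n = 4), stearic acid (SA, 18 carbons, no double bond, n = 4) and oleic acid (OA, 18 carbons and 1 double bond, n = 3, a further sample having failed at cRNA amplification per the labels). The double bond is labelled at position 7 in PMA and at position 9 in OA, counted from the methyl end. Control cells (n = 4) had the ethanol and the 2% albumin that all acid-treated cells had too. The arrays are labelled biological replicates of 1 cell line, and p-values measure the spread between them.

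A lipid droplet is a core of triglyceride under a single layer of phospholipid, and the proteins on its surface decide how fast the fat is released. In resting adipocytes perilipin 1 holds the coactivator ABHD5 on the droplet. Hormones that raise cyclic AMP activate protein kinase A, which phosphorylates perilipin 1 and hormone-sensitive lipase. ABHD5 is then freed to activate adipose triglyceride lipase, which takes the first fatty acid from the triglyceride, and hormone-sensitive lipase takes the next. CIDE proteins sit where droplets touch and pass lipid from the smaller droplet to the larger. Many of these genes are known targets of PPAR gamma, the nuclear receptor that drives adipocyte differentiation and that binds fatty acids.

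Promoter sequences are shown for Plin1 and Pnpla3, whose levels differed among the groups, for Plin5, which leaned the same way with every acid, and for Plin2, which did not pass in any comparison. They come from a reference set of promoter windows (build GRCm38.p6), which had a window for 9 of the 10 genes. The bounds of the annotated genes are those of RefSeq. Each line is the part of the window upstream of the annotated gene, 5′ to 3′ on the gene's strand: chr7:79732905-79733026 (minus strand), chr17:56117607-56117798 (minus), chr4:86670218-86670309 (minus) and chr15:84167566-84167775 (plus). Capitals mark matches to 6 searched motifs.
Plin1: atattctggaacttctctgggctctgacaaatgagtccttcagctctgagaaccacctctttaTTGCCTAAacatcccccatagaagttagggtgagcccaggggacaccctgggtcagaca
Plin5: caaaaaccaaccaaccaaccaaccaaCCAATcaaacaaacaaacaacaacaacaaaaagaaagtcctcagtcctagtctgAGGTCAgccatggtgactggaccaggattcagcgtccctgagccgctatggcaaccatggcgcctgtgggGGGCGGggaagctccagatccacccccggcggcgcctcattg
Plin2: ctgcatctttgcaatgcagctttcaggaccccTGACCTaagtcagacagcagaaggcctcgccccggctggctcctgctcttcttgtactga
Pnpla3: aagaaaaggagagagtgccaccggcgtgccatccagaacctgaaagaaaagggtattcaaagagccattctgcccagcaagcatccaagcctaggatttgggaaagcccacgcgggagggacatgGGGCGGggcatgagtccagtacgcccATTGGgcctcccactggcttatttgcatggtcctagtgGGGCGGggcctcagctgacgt
The motifs, searched on both strands, were AGGTCA (the core of sites of PPAR and other nuclear receptors), TTGCNNAA (C/EBP), CCAAT (the CCAAT box), GGGCGG (the GC box), CACGTG (the E-box) and TATAAA (the TATA box). The capitals are a C/EBP match in Plin1, and a CCAAT box, a nuclear receptor core and a GC box in Plin5. In Plin2 they are a nuclear receptor core, and in Pnpla3 a CCAAT box and 2 GC boxes. The printed stretches are 92 to 210 bases long, and the full windows held further matches. The full Plin2 window also held a CCAAT box, an E-box and a GC box. The full windows held 2 C/EBP matches in Plin1, 2 CCAAT boxes and 2 GC boxes in Plin5, and 3 GC boxes in Pnpla3. The shares that follow are for full windows. Of all 32851 windows of the same set, 300 bases each, 16.3% held AGGTCA, 10.8% TTGCNNAA, 37.4% CCAAT, 35.7% GGGCGG, 7.15% CACGTG and 13.6% TATAAA. A match of letters is a description and shows no binding.

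Levels are given as log2 RMA values. Differences are on the same log2 scale, with the SE from a single limma model of the 19 arrays, and the threshold was an adjusted p of 0.05 over the 18820 genes. The array medians lay between 5.23 and 5.43. PA replicates 2 and 4 stood apart on the first principal component, and PMA replicates 1 and 4 on the second. Adipocyte markers were present on every array, with Adipoq, the adipokine adiponectin, between 12.07 and 12.32, and Fabp4, the fatty acid binding protein of adipocytes, between 12.25 and 12.44. Fibroblast markers were present too, with Dlk1, the preadipocyte marker, between 11.25 and 11.71. Means over 7 macrophage markers lay between 4.61 and 4.83 on all arrays, and means over 9 adipocyte markers between 10.67 and 10.81. In bulk RNA a change in the share of differentiated cells and a change per cell cannot be told apart.

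Of the 10 genes, 3 differed among the 5 groups, namely Pnpla3 (adjusted p = 0.00844), Cidea (0.0235) and Plin1 (0.0495), by limma's F-test. The share among all genes was 1.47%. Cidea was the only one of the 10 that passed against control cells, and only with OA, where 0.861% of all genes passed. Cidea and Plin5 had the lowest levels of the 10, with means over all arrays of 5.79 and 5.27. Both lie near the array medians of 5.23 to 5.43, though neither was among the lowest 1 in 3 genes. All others of the 10 averaged 9.49 or more. Pnpla3 lay higher on every array of the 18-carbon acids than on every array of the 16-carbon acids, a grouping tested only after its values were seen. Among the planned comparisons between acids it passed only for PMA against OA. Plin1 stood above control on every acid-treated array, by little. Plin2, Cidec, Pnpla2, Lipe and Abhd5 stayed within 0.10 of control with every acid. The plot of all members by array shows the spread behind these statements.

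**Figure D1:**
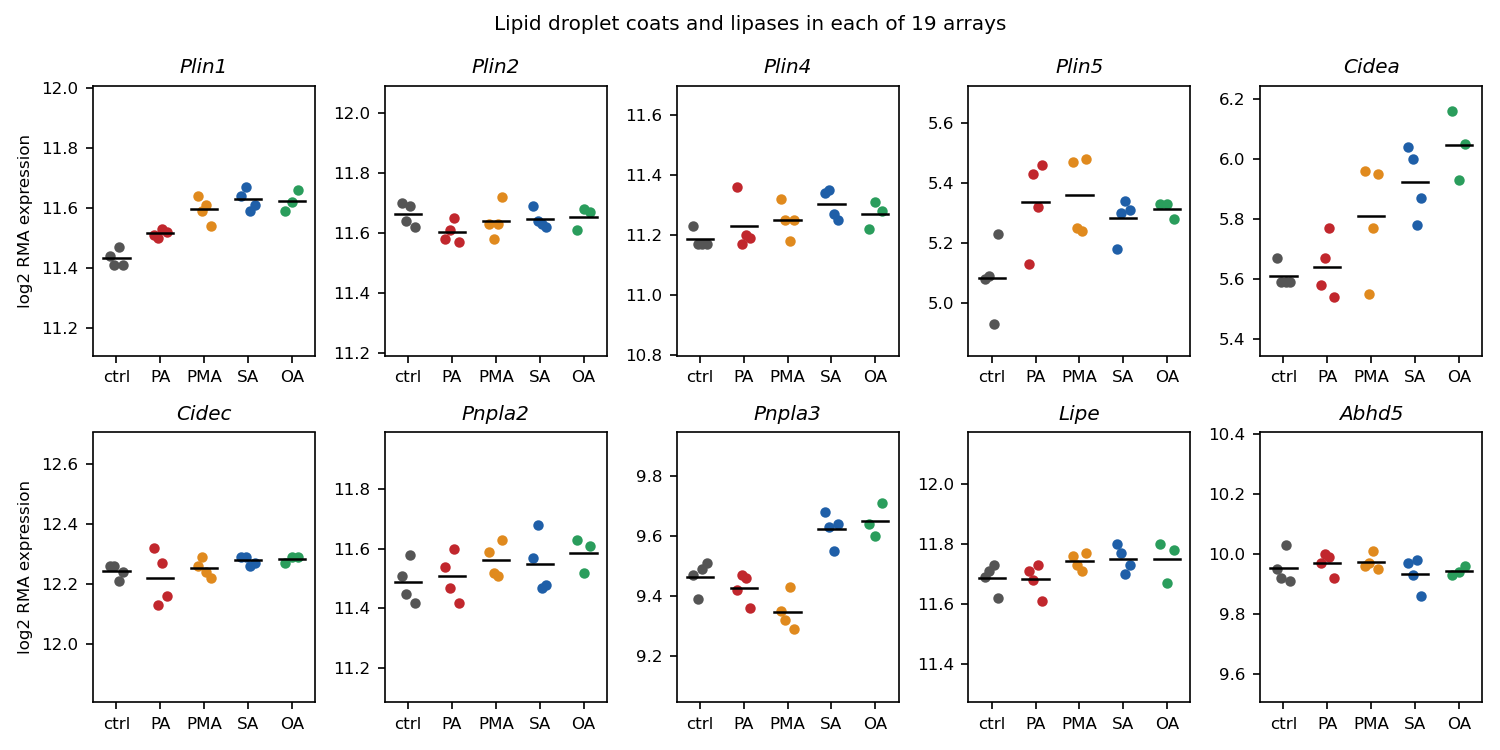
Log2 RMA expression (vertical axis, each panel spanning the same 0.9 log2 units around its gene's mean) of the 10 genes in control cells and cells given PA, PMA, SA or OA. Points are arrays and bars are group means; Plin1 lies between 11.41 and 11.47 in control cells and at 11.50 or above in all others, and Pnpla3 at 9.55 or above with SA and OA and at 9.51 or below elsewhere.

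Plin1, the main droplet coat of fat cells, read 11.44, 11.41, 11.47 and 11.41 in the control arrays. PA gave 11.51, 11.50, 11.53 and 11.52, and PMA gave 11.64, 11.59, 11.61 and 11.54. SA gave 11.64, 11.67, 11.59 and 11.61, and OA gave 11.59, 11.62 and 11.66. All 15 acid-treated arrays were above all 4 control arrays, and the PA arrays lay between the control arrays and the arrays of every other acid without overlap. The group means were 11.43 ± 0.03 in control, 11.52 ± 0.01 with PA, 11.59 ± 0.04 with PMA, 11.63 ± 0.03 with SA and 11.63 ± 0.04 with OA (SD). The differences from control were 0.08 ± 0.04 with PA (adjusted p = 0.353), 0.16 ± 0.04 with PMA (0.098), 0.20 ± 0.04 with SA (0.0739) and 0.19 ± 0.05 with OA (0.0502). None passed, and the mean of the 4 acids, 0.16 ± 0.03 above control, did not pass either (adjusted p = 0.0601). For that mean 0 of the 10 genes passed in limma, and Plin1, Plin5 and Cidea had an unadjusted p under 0.05 (0.197% and 12.7% of all genes). In fold terms the SA difference was 1.15, with a 95% interval of 1.08 to 1.22.
Leaving out any of 18 of the 19 arrays in turn ended the call of Plin1 over the 5 groups; the adjusted p was highest without control replicate 4, at 0.134. Without PA replicate 1 it held (0.0479). Plin1 with OA passed without PA replicate 2 (0.0389) and without PMA replicate 1 (0.0437), and the mean of 4 acids without PA replicate 2 (0.0418). With a trended, robust estimate of the spread Plin1 passed against control with PMA (adjusted p = 0.0161), SA (0.00347) and OA (0.00358).

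Plin5, the perilipin of tissues that burn fat, which links droplets to mitochondria, read 5.08, 5.09, 4.93 and 5.23 in control arrays. PA gave 5.13, 5.43, 5.32 and 5.46, and PMA gave 5.47, 5.25, 5.24 and 5.48. SA gave 5.18, 5.30, 5.34 and 5.31, and OA gave 5.33, 5.33 and 5.28. The PMA and OA arrays lay above all control arrays, while PA and SA overlapped with control replicate 4. The mean was 5.08 ± 0.12 in control and 5.33 ± 0.15, 5.36 ± 0.13, 5.28 ± 0.07 and 5.31 ± 0.03 (SD) with PA, PMA, SA and OA. The differences from control were 0.25 ± 0.08, 0.28 ± 0.08, 0.20 ± 0.08 and 0.23 ± 0.08, and none passed (adjusted p = 0.225, 0.105, 0.413 and 0.233). The highest PA values were those of replicates 2 and 4 and the highest PMA values those of replicates 1 and 4, the arrays that stood apart over all genes. Without those 4 arrays the differences were 0.14 with PA and 0.16 with PMA (adjusted p = 0.872 and 0.64). After normalization of all arrays by cyclic loess they were 0.17 with PA, 0.21 with PMA, 0.19 with SA and 0.23 with OA. With PA replicate 1 left out alone, the PA difference was 0.31 and passed (adjusted p = 0.0326).

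Plin4, a perilipin that coats small, newly formed droplets, read 11.23, 11.17, 11.17 and 11.17 in control arrays. SA gave 11.34, 11.35, 11.27 and 11.25, all above control, and the difference of 0.12 ± 0.05 did not pass (adjusted p = 0.468). PA gave 11.36, 11.17, 11.20 and 11.19, PMA gave 11.32, 11.25, 11.18 and 11.25, and OA gave 11.22, 11.31 and 11.28. These 3 groups overlapped with control, with differences of 0.05 ± 0.05, 0.07 ± 0.05 and 0.09 ± 0.05.

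Plin2, the coat found in nearly every cell that stores lipid and a gene commonly raised by fatty acids, read 11.62 to 11.70 in control arrays. Its range was 11.57 to 11.65 with PA, 11.58 to 11.72 with PMA, 11.62 to 11.69 with SA and 11.61 to 11.68 with OA. Every acid overlapped with control. The differences were -0.06, -0.02, -0.02 and -0.01 (each SE 0.05), and the upper ends of the 95% intervals were 0.04 with PA, 0.07 with PMA, 0.08 with SA and 0.09 with OA. A rise of Plin2 transcript above 1.07-fold with OA thus lay outside the interval.

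Cidea, a droplet fusion protein best known from brown and beige fat, read 5.67, 5.59, 5.59 and 5.59 in control arrays. PA gave 5.58, 5.67, 5.77 and 5.54, and PMA gave 5.96, 5.55, 5.77 and 5.95. SA gave 6.04, 6.00, 5.78 and 5.87, and OA gave 6.16, 5.93 and 6.05. All SA and all OA arrays were above all control arrays, and PA and PMA overlapped with control. The order of the means was control (5.61 ± 0.04), PA (5.64 ± 0.11), PMA (5.81 ± 0.19), SA (5.92 ± 0.12) and OA (6.04 ± 0.11, SD), and each neighbouring pair in it overlapped. Cidea rose with OA by 0.43 ± 0.09 (adjusted p = 0.0209), which is 1.35-fold with a 95% interval of 1.19 to 1.53. It was the 1 of 10 members called higher with OA, where 0.457% of all genes were. Over the 5 groups the call of Cidea ended without control replicates 3 and 4 in turn (0.0521 and 0.0533), PA replicate 4 (0.0523), and OA replicates 1 and 3 in turn (0.0689 and 0.0733). The difference was 0.31 ± 0.08 with SA (adjusted p = 0.144), 0.20 ± 0.08 with PMA (0.25) and 0.03 ± 0.08 with PA (0.881).
The OA call ended without OA replicate 1 (adjusted p = 0.111), OA replicate 3 (0.0856), control replicate 3 (0.0614) and control replicate 4 (0.0637). PMA replicates 1 and 4 held the highest PMA values, and without them the PMA difference was 0.05. After cyclic loess the Cidea differences were -0.03 with PA, 0.13 with PMA, 0.30 with SA and 0.43 with OA. Of 9 brown or beige fat markers 3 were among the lowest 1 in 3 genes by mean level: Ucp1, the heat-making uncoupling protein (3.75 to 4.17), Dio2 (4.24 to 4.48) and Zic1 (3.59 to 3.90). Cox8b and Cox7a1, subunits of cytochrome oxidase, were at 10.72 to 11.17 and 10.43 to 10.82. The median difference of these 9 markers with OA was -0.02.

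Cidec, the related fusion protein that builds the single large droplet of white fat cells, did not pass with any acid. Its range was 12.21 to 12.26 in control, 12.13 to 12.32 with PA, 12.22 to 12.29 with PMA, 12.26 to 12.29 with SA and 12.27 to 12.29 with OA. The SA and OA arrays lay just above the control arrays, by 0.03 ± 0.05 and 0.04 ± 0.05 (adjusted p = 0.921 and 0.861).

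**Figure D2:**
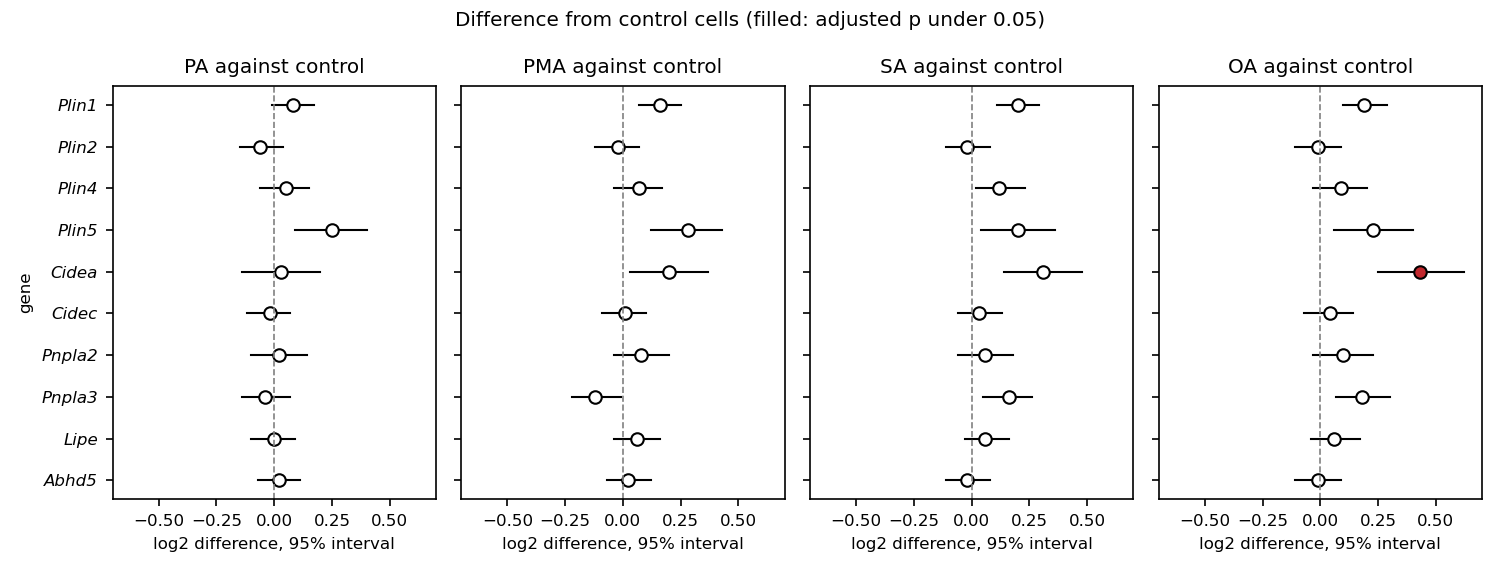
Log2 difference from control cells (horizontal axis) of each gene with PA, PMA, SA and OA, with 95% intervals from the model over all arrays; filled points passed at an adjusted p under 0.05. Cidea with OA, at 0.43, is the only filled point, and Plin2 and Abhd5 lie between -0.06 and 0.02 in all 4 panels.

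Pnpla3, a close relative of adipose triglyceride lipase found on droplets and known to follow feeding through the lipogenic factors SREBP1c and ChREBP, read 9.47, 9.39, 9.49 and 9.51 in control arrays. PA gave 9.42, 9.47, 9.46 and 9.36, and PMA gave 9.35, 9.32, 9.43 and 9.29. SA gave 9.68, 9.63, 9.55 and 9.64, and OA gave 9.64, 9.60 and 9.71. All 7 arrays of the 18-carbon acids were above the 12 others. The order of the means was PMA (9.35 ± 0.06), PA (9.43 ± 0.05), control (9.46 ± 0.05), SA (9.62 ± 0.05) and OA (9.65 ± 0.06, SD), and of its neighbouring pairs all overlapped but control and SA. Against control the differences were 0.16 ± 0.05 with SA (adjusted p = 0.278), 0.18 ± 0.05 with OA (0.12), -0.12 ± 0.05 with PMA (0.258) and -0.04 ± 0.05 with PA (0.724), and none passed. The F-test call of Pnpla3 held with each of the 19 arrays left out in turn, where the highest adjusted p was 0.0293. It ended when PA replicates 2 and 4 and PMA replicates 1 and 4 were all left out (0.0602).

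Pnpla2, which encodes adipose triglyceride lipase, ranged from 11.42 to 11.58 in control cells. It ranged from 11.42 to 11.60 with PA, 11.51 to 11.63 with PMA, 11.47 to 11.68 with SA and 11.52 to 11.63 with OA. The differences were 0.02, 0.08, 0.06 and 0.10 (each SE 0.06), with adjusted p of 0.522 or more. Abhd5, its coactivator, differed by 0.02, 0.02, -0.02 and -0.01 (each SE 0.05), and its arrays lay between 9.86 and 10.03 in all groups. The groups overlapped for both genes.

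Lipe, which encodes hormone-sensitive lipase, read 11.69, 11.71, 11.73 and 11.62 in control arrays. PA gave 11.71, 11.68, 11.73 and 11.61, and PMA gave 11.76, 11.73, 11.71 and 11.77. SA gave 11.80, 11.77, 11.70 and 11.73, and OA gave 11.80, 11.67 and 11.78. All acids overlapped with control, and the differences were -0.00 with PA and 0.06 with each of PMA, SA and OA (each SE 0.05). Lipe is the 1 gene of the 10 with a further probe set, which averaged 9.09. It differed from control by 0.03, -0.11, -0.05 and -0.07 (SE 0.11, and 0.12 with OA). With PMA, SA and OA the probe sets differed in sign, but no difference of the further one exceeded its SE, so the signs say little. Their values over the 19 arrays correlated at r = -0.23, a description that carries no test.

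Read as counts, 0 of the 10 genes passed with PA, PMA or SA by limma, against 0%, 0.266% and 0.165% of all genes, and 1 passed with OA, against 0.861%. With an unadjusted p under 0.05 there was 1 gene with PA (15.4% of all genes), 4 with PMA (16%), 5 with SA (8.53%) and 4 with OA (11.6%). All of these were higher with the acid except Pnpla3 with PMA. Groups did not overlap, with the acid higher, for 1 gene with PA (3.9% of all genes), 2 with PMA (9.29%), 5 with SA (4.88%) and 5 with OA (9.72%). The 5 with SA were Plin1, Plin4, Cidea, Cidec and Pnpla3, and the 5 with OA were Plin1, Plin5, Cidea, Cidec and Pnpla3. The acids share the same 4 control arrays. The median difference of the 10 genes was 0.02, 0.06, 0.09 and 0.09 with PA, PMA, SA and OA, beside 0.03, 0.06, 0.02 and 0.02 over all genes.

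The 4 acids were given at the same dose and time, so pairs that differ by a double bond or by 2 carbons were compared directly. Over these 4 pairs and 10 genes, 1 of 40 comparisons passed. It was Pnpla3 with PMA against OA, monounsaturated acids of 16 and 18 carbons, at 9.35 against 9.65, a difference of -0.30 ± 0.05 (adjusted p = 0.0312, 95% interval -0.41 to -0.19). PMA and OA differ in the labelled position of the double bond (7 against 9) as well as by 2 carbons, and these cannot be told apart here. The share of all genes that passed in that pair was 0.0531%. No PMA array reached the OA arrays, and 1.92% of all genes were lower with PMA in this way. The call ended in 8 of the 19 fits that left out 1 array: without control replicate 1 (adjusted p = 0.0551), PMA replicates 1, 2 and 4 in turn (0.113, 0.053 and 0.143), SA replicate 2 (0.0522), and OA replicates 1, 2 and 3 in turn (0.0962, 0.0946 and 0.306). It ended also with every probe set tested (0.112), with only the arrays compared (0.206), without both PMA replicates 1 and 4 (0.47), and without these and PA replicates 2 and 4 (0.313). The difference itself lay between -0.33 and -0.27 in all of these fits.

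Between the saturated acids PA and SA, which also differ by 2 carbons, Pnpla3 differed by -0.19 ± 0.05 (adjusted p = 0.131), Cidea by -0.28 ± 0.08 (0.155) and Plin1 by -0.11 ± 0.04 (0.238). The PA arrays lay below the SA arrays without overlap for all 3 genes (2.57% of all genes lay lower in this way). Of the 10 genes 0 passed in limma (0.143% of all genes did), and 3 had an unadjusted p under 0.05 (15.8%). Cidea differed by -0.24 ± 0.09 between PMA and OA (adjusted p = 0.497), where the groups overlapped at 5.93 to 5.96.

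The double bond alone went with no call. Between PA and PMA, 0 of 10 genes passed and 0 had an unadjusted p under 0.05, where 0.962% and 17.7% of all genes did. Cidea had the widest difference of the 10 at -0.17, with an interval of -0.34 to 0.00, and Pnpla3 differed by 0.08, with an interval of -0.02 to 0.18. Plin1 was lower with PA than with PMA without overlap, by -0.08 (interval -0.17 to 0.01), where 7.09% of all genes were. Between SA and OA, 0 of 10 passed and 0 had an unadjusted p under 0.05 (0.0319% and 2.4% of all genes). The intervals there were -0.30 to 0.06 for Cidea, -0.14 to 0.09 for Pnpla3 and -0.09 to 0.10 for Plin1. Saturated against monounsaturated acids, taken as means, gave 0 calls, beside 0.553% of all genes, and Cidea at -0.14 ± 0.06 (adjusted p = 0.332). Of the 10, 1 had an unadjusted p under 0.05 there (12.6% of all genes). Whether the double bond mattered differently at 16 and 18 carbons was asked with an interaction term. It gave 0 calls of 10 in limma and 0 with an unadjusted p under 0.05 (0.00531% and 5.24% of all genes).

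**Figure D3:**
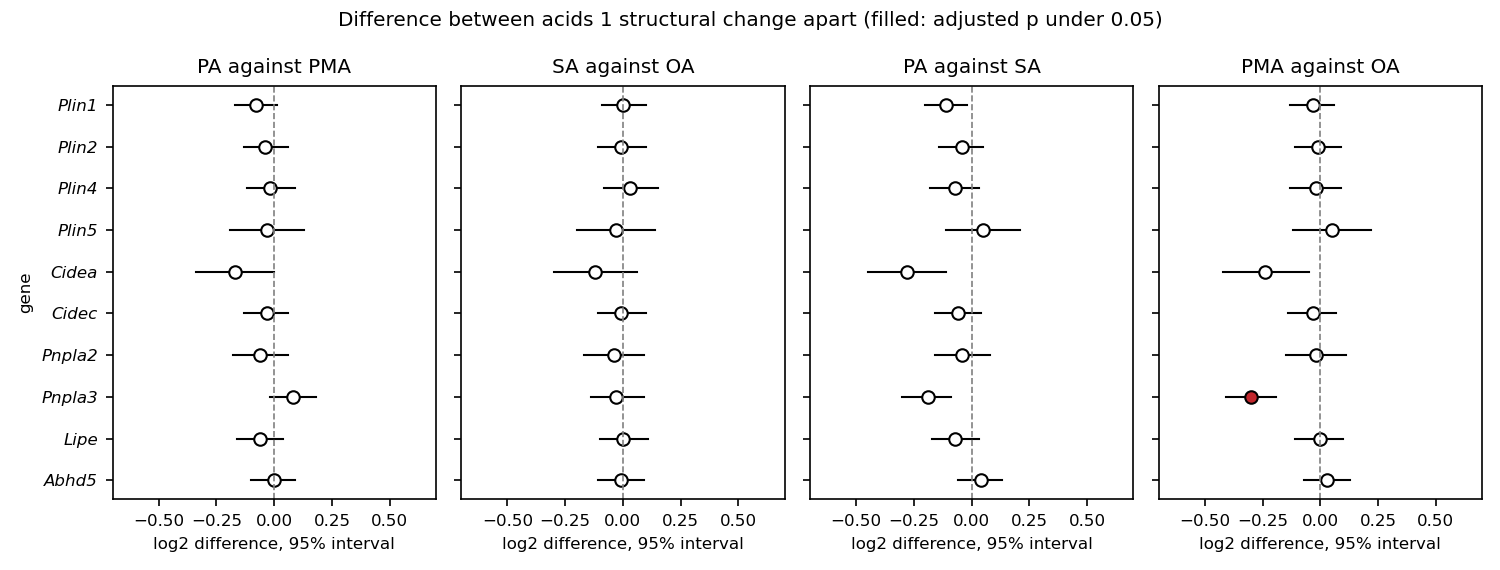
Log2 difference (horizontal axis) between acids that differ by a double bond or by 2 carbons, first minus second named, with 95% intervals. PMA and OA differ in the labelled position of the double bond too. Only Pnpla3 between PMA and OA, at -0.30, is filled (adjusted p under 0.05), and every interval between SA and OA covers 0.

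The mean of the 18-carbon acids against the mean of the 16-carbon acids was added after the values of Pnpla3 had been seen. Pnpla3 was higher by 0.25 ± 0.04 with 18 carbons (9.64 against 9.39, adjusted p = 0.0014), 1.19-fold with a 95% interval of 1.13 to 1.25. It was the 1 gene of 10 called higher, beside 0.165% of all genes, and 0.51% were called in either direction. This difference passed in all 29 alternative fits, with an adjusted p of 0.0499 at most, when PA replicates 2 and 4 and PMA replicates 1 and 4 were all left out. Cidea was 0.26 ± 0.06 higher with 18 carbons (5.98 against 5.72) and did not pass (adjusted p = 0.0533). It passed in 10 of its 29 alternative fits, among them those without PA replicates 1 and 3 in turn (0.039 and 0.0401), PMA replicate 4 (0.0475), and SA replicates 3 and 4 in turn (0.0496 and 0.0441). The other 8 genes lay between -0.05 and 0.07.

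Genes around these 10 were taken from lists of droplet formation, hormonal control of lipolysis, PPAR targets and regulators. Of 30 other droplet proteins measured 0 passed against control with any acid in limma. With an unadjusted p under 0.05 there were 2, 7, 6 and 5 of the 30 with PA, PMA, SA and OA, beside 15.4%, 16%, 8.53% and 11.6% of all genes, and 1, 0, 1 and 1 of these were lower. Hilpda, an inhibitor of adipose triglyceride lipase, differed by -0.21 ± 0.09 with SA and -0.22 ± 0.10 with OA (adjusted p = 0.523 and 0.374). Dgat2 and Dgat1, the enzymes that complete triglyceride, differed by 0.13 and 0.14 with OA (adjusted p = 0.291 and 0.33), and Cavin1, a caveolar coat protein, by 0.18 ± 0.05 with SA (0.162). With PA the closest was Fitm1, a protein of droplet budding (0.26 ± 0.08, adjusted p = 0.225). The list medians were -0.04, 0.07, 0.03 and 0.03 with PA, PMA, SA and OA.

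Of 20 genes of hormonal control of lipolysis 0 passed against control in limma. With PA, PMA, SA and OA, 1, 4, 4 and 7 of the 20 had an unadjusted p under 0.05, all higher, beside the same 15.4%, 16%, 8.53% and 11.6% of all genes. Prkacb, a catalytic subunit of protein kinase A, differed by 0.24 ± 0.06 with PMA and by 0.24 ± 0.06 with OA (adjusted p = 0.07 and 0.0819). Pde3b, the phosphodiesterase through which insulin lowers cyclic AMP, differed by 0.18 ± 0.07 with SA and 0.22 ± 0.08 with OA (adjusted p = 0.411 and 0.205). The list medians were 0.02, 0.07, 0.09 and 0.09. Of 16 regulators 0 passed in limma, and 3, 4, 4 and 5 had an unadjusted p under 0.05, to be read beside the same shares of all genes. Their medians were 0.07, 0.08, 0.06 and 0.11. Pparg differed by 0.10 ± 0.04 with SA and 0.14 ± 0.05 with OA (adjusted p = 0.55 and 0.204), and Foxo1, an insulin-restrained factor that induces Pnpla2, by 0.20 ± 0.06 with OA (0.132).

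Of 19 other PPAR targets 1 rose with OA, Pck1, which makes the glycerol backbone for triglyceride (0.21 ± 0.05, adjusted p = 0.0488), and 18 did not pass, where 0.861% of all genes passed. With PA, PMA or SA 0 of 19 passed in limma. With PA, PMA, SA and OA, 1, 4, 5 and 6 of the 19 had an unadjusted p under 0.05, beside 15.4%, 16%, 8.53% and 11.6% of all genes. Pck1 differed by 0.19 ± 0.05 with SA (adjusted p = 0.114). Between PA and PMA 2 of the 19 were lower with PA, namely Slc27a1, a fatty acid transporter (-0.29 ± 0.06, adjusted p = 0.0153), and Cpt1a, which admits fatty acids to mitochondria (-0.22 ± 0.05, adjusted p = 0.0422), where 0.962% of all genes passed. The list medians against control were -0.02, 0.06, 0.08 and 0.08 with PA, PMA, SA and OA.

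**Figure D4:**
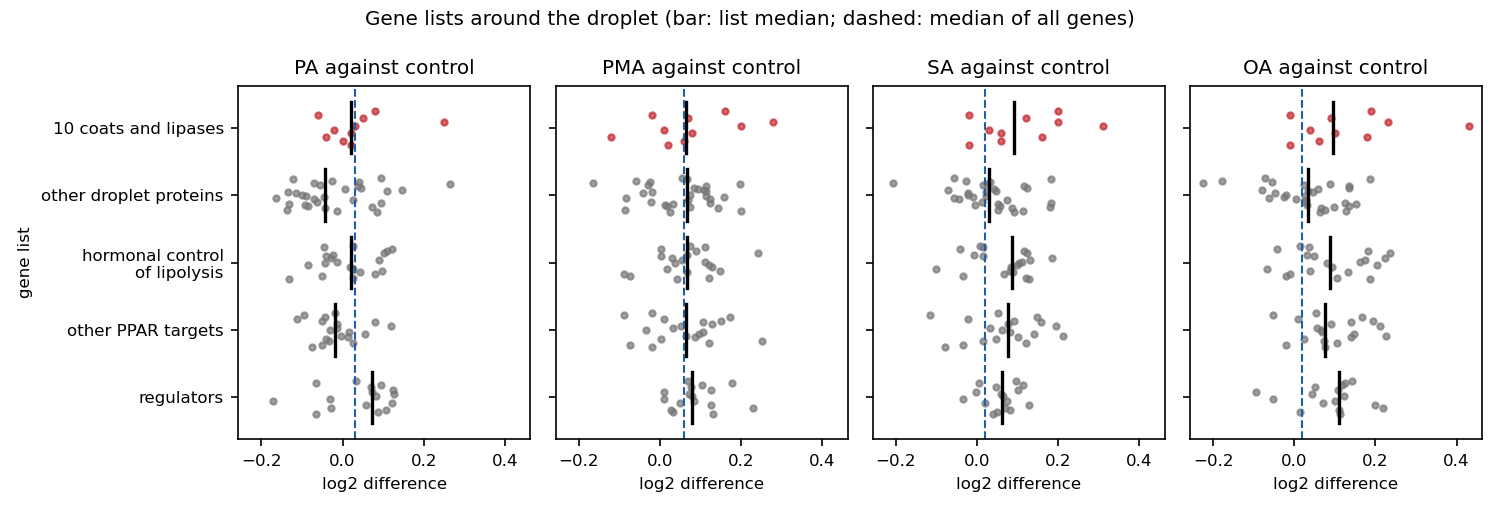
Log2 differences from control (horizontal axis) of single genes (points) in the 10 coats and lipases and in 4 further lists, for PA, PMA, SA and OA. Black bars are list medians and the dashed line is the median of all genes; the bar of the 10 genes lies at 0.02 with PA and at 0.09 with SA and OA, where all genes have 0.03, 0.02 and 0.02.

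Preadipocyte and fibroblast markers moved beside some of these values. Their median difference over 9 genes was 0.15 with PMA, 0.14 with OA, 0.07 with SA and 0.00 with PA. With PMA 1 was called higher and 0 lower, where 0.266% of all genes were called. The median of 9 adipocyte markers was 0.03, 0.06, 0.03 and -0.01 in the same order, and that of all genes 0.06, 0.02, 0.02 and 0.03. Means over the fibroblast markers lay at 11.02 to 11.09 in control arrays and 11.03 to 11.09 with PA. They lay above control on every array of the other acids, at 11.16 to 11.24 with PMA, 11.11 to 11.12 with SA and 11.10 to 11.19 with OA. The part of such shifts in the differences of Plin1 and Cidea was not tested.

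By Pearson's r over the 19 arrays, given as a description because the genes were ranked by it out of 18819, the genes most like Cidea were Wasf1 (0.91), Clic4 (0.89) and Atxn7l1 (0.89). Those most like Plin1 were Cat, the peroxide-degrading catalase (0.89), Aff1 (0.87) and Col6a1, a collagen chain (0.87). Pnpla3 was most like B3galt2 (0.85), Il2ra, a chain of the interleukin 2 receptor (0.82), and Lep, the adipokine leptin (0.81). For Plin5 they were Bcl7a (0.89), Pygo1 (0.88) and Marchf11 (0.86), for Plin4 Mir100hg (0.85), Rnf125 (0.78) and Rreb1 (0.78), and for Lipe Tcf25 (0.90), Lta4h (0.89) and Ifnar2 (0.88). No member was among the closest 3 of another. The arrays share normalization and groups, so such values mix group differences with array effects.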

How the data were processed

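Total RNA (100 ng, RNA integrity number above 9.0) was hybridised to Affymetrix Mouse Gene 1.1 ST arrays, 1 array per sample, per the labels. The authors deposited log2 RMA expression values for 35556 probe sets, made with RMA in affy 1.34.0 and R 2.15.0, per the submitters' processing notes; further settings are not given in the sources used here. Of the probe sets, 21218 had 1 gene symbol in the platform annotation, and 1881 had several and were left out. The brightest probe set per gene was kept, with no filter on low values. Summarising probes into 1 value per gene hides isoforms.

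The 18820 genes went into limma 3.58.1 (lmFit and eBayes, run under R 4.3.3), with a mean for each of the 5 groups and all 19 arrays together. P-values are two-sided and were adjusted by Benjamini-Hochberg within each comparison. The script was tested on simulated data. The members and lists were chosen with earlier results of these data known. Every array is given for the 6 members with the smallest p of the F-test among 5 groups; from each further list up to 4 genes with the smallest p in a comparison could be named. The comparison of 18 with 16 carbons, and the fit without PA replicates 2 and 4 and PMA replicates 1 and 4 together, were added after seeing the data. Alternatives were a filter on dim genes, every probe set, averaged probe sets, cyclic loess, a trended robust spread, a replicate block, array weights, only the arrays compared, and arrays left out. No batch or date was labelled. The number of arrays limits the precision. Of the listed genes some were not measured under 1 symbol: 30 of 34 droplet proteins, 20 of 29 genes of hormonal control, 19 of 27 PPAR targets and 16 of 16 regulators were. Promoter windows were searched with Python 3.11.15.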

Additional observations from a re-analysis of the deposited data

Results flagged for a closer look

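Pnpla3 differed between PMA and OA by -0.30, with both acids at the same dose and time, and between the 18-carbon and the 16-carbon acids by 0.25. The first difference between acids passed the test, and kept its call in 17 of 30 alternatives. The second comparison was added after the values of Pnpla3 had been seen, so its pass is no further support.

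Within groups of 4 arrays, 3 values stood apart relative to the range of their own group. They were Plin4 in control replicate 1 at 11.23 and in PA replicate 1 at 11.36, and Cidea in control replicate 1 at 5.67. The other control arrays all read 11.17 for Plin4 and 5.59 for Cidea, so these 2 gaps were small in log2 units. The flagged values came from 40 groups looked at, of which chance flags about 1 in 20.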

How the results depend on the processing

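The counts of members called against control were 0 with PA, PMA and SA and 1 with OA. With the dimmest genes left out they were 1 with PMA, 1 with SA, 2 with OA and 1 for the mean of 4 acids; with every probe set 2 with OA, 0 for PMA against OA and 1 for the mean of 4 acids. With cyclic loess there was 1 with SA, 2 with OA and 1 for the mean of 4 acids, with a trended robust spread 1 with PMA, 1 with SA, 3 with OA and 1 for the mean, and with array weights 1 with PMA, 2 with SA, 4 with OA and 3 for the mean. Without both PA 2 and 4, without both PMA 1 and 4, and without all 4 of them, OA had 2; the last gave 1 with SA. PMA against OA fell from 1 to 0 without both PMA arrays, without all 4, with only the arrays compared, and with the replicate block. For 18 against 16 carbons the count was 2 (Pnpla3 and Cidea) with the dim filter, cyclic loess, trended spread, array weights and without both PMA arrays. The 3 calls over the 5 groups became 1 without both PA arrays (Pnpla3) and 1 without all 4 arrays (Cidea). They became 2 with every probe set (Cidea lost, 0.0673), with averaged probe sets (Plin1 lost, 0.05004) and without both PMA arrays (Plin1 lost, 0.0661). Leaving out single arrays gave 0 to 1 with PA, 0 to 2 with OA, 0 to 1 for PMA against OA and for the mean of 4 acids, 1 to 2 for 18 against 16 carbons, and 1 to 3 over the 5 groups. These counts are given without the share of all genes called under the same alternative. A higher count therefore cannot be read as particular to these genes, since more calls over all genes could go with it. The cause of the changes in count was not tested.

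The 26 differences of single members with an unadjusted p under 0.05 were recomputed under these alternatives, which gave 773 values. Of these values 715 kept direction and side of the threshold, 41 passed newly, 17 no longer passed and 0 changed sign. Counted by difference, 0 of the 26 and 53 of the other 94 changed sign under at least 1 alternative. The 26 were chosen by their p-value in these same data, which favours differences far from 0. That contrast is therefore no support for them. Of 36 same-numbered pairs of arrays, 6 correlated above 0.1 in their deviations, with r from -0.433 to 0.396. For 4 of the 19 arrays the closest array of another group had the same number. Whether same-numbered arrays shared a culture was not tested. With the replicate block Cidea with OA kept its call (adjusted p = 0.0429), and Pnpla3 for PMA against OA lost it (0.113). Over the 5 groups the block left 2 calls, without Plin1 (0.114).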
